A study of Mus musculus with 14 samples.

Results

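The genes described here encode the proteins of the mitochondrial ribosome, the particle that translates the few mRNAs made from mitochondrial DNA. They were the genes whose symbol in the deposited table begins with Mrpl (large subunit) or Mrps (small subunit) followed by a number, leaving out pseudogenes marked -ps, with a mean normalized read count of at least 50 over the 14 libraries. Of 55401 genes in the table, 84 had such a symbol, 6 of these were marked as pseudogenes, and all of the other 78 reached the mean of 50, so that no candidate lay below the limit. The lowest means were those of Mrpl46 (99.2), Mrpl22 (132) and Mrpl33 (159.6). There were 49 Mrpl and 29 Mrps genes, all annotated as protein coding, on 17 chromosomes with 11 on chromosome 11. The symbols do not follow the subunits exactly. Mrps18a and Mrps30 encode large-subunit proteins, and Mrps36 encodes a component of the 2-oxoglutarate dehydrogenase complex and no ribosomal protein.

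Mitochondrial ribosomes make a handful of inner-membrane proteins of the respiratory chain and ATP synthase, among them cytochrome b and subunits of complexes I and IV. All of their own proteins come from nuclear genes, are made in the cytosol and are imported. Part of the set has counterparts in bacteria and lines the decoding centre, the peptidyl transferase centre and the stalk, while the rest was gained in the mitochondrial lineage. Neurons depend on oxidative phosphorylation, and the suprachiasmatic nucleus (SCN), the hypothalamic pacemaker of circadian rhythms, has a daily cycle of firing and energy use.

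Total RNA of SCN cut by laser from brain sections was sequenced in 14 libraries of 4 groups. The first group was Vipr2-/- mice under scheduled voluntary exercise (SVE, 3 libraries), the second Vipr2-/- mice without that schedule (nSVE, 3 libraries), and the others wild-type (Vipr2+/+) mice under SVE and under nSVE, with 4 libraries each. Vipr2-/- mice are without VPAC2, a receptor for VIP by which SCN neurons synchronize each other, in every tissue, and are on a C57BL/6 background like the wild type. Most of the study's mice were males over 8 weeks old. After 14 days of light and dark cycles, all stayed in constant darkness. SVE mice ran free for 14 days and then had the running wheel for 6 h in every 24 h, for 6 to 9 days in Vipr2-/- and 35 to 40 days in wild type, and were culled 2 h after the wheel opened. nSVE mice ran free throughout and were culled at circadian time 14. Animals that did not entrain to SVE and arrhythmic nSVE Vipr2-/- animals had been left out by the authors, so exercise and selection by response to it cannot be told apart. Under SVE the genotypes also differ in days of exercise, and genotype and duration cannot be told apart there. Exercise comparisons averaged over the genotypes join both durations. The series text gives circadian time 24 for wild-type SVE, while the sample protocol gives the same wheel-based time (ZT14) for both SVE groups; whether the 24 is an error cannot be settled from these labels. Whether each library is 1 animal is not in the labels, and the p-values below rest on the variation among libraries, which may be technical.

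The libraries held 17709080 to 48794679 reads. Vipr2 stood at 90.9 to 244 normalized reads in the 6 Vipr2-/- libraries, against 6247 to 10031 in the 8 wild-type libraries. Transcripts of SCN neurons were abundant (Gad1 16409 to 22487 and Lhx1 2086 to 4290 normalized reads), while of 5 markers of glutamatergic neurons outside the SCN, Neurod6 was at 0 in all 14 libraries and Crh in 13. The other markers of that list were present throughout, with Slc17a6 at 85.0 to 259, Slc17a7 at 3.63 to 581 and Oxt at 2675 to 7931 normalized reads; astrocyte and oligodendrocyte transcripts were present in each library. Of the 18175 genes tested, the share at 0 reads was 10.5%, 3.99% and 16.3% in Vipr2-/- SVE, 11.2%, 11.8% and 20.7% in Vipr2-/- nSVE, 1.22% to 4.65% in wild-type SVE and 4.56% to 8.23% in wild-type nSVE. Vipr2-/- nSVE library 3 stood apart, with the most genes at 0 and the highest summed level of the ribosomal set. In such bulk tissue, fewer cells of a type and less RNA per cell cannot be told apart.

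Regulatory sequence was available for 69 of the 78 genes, as windows of 250 bases before to 50 after the transcription start (RefSeq, GRCm38.p6). That start lay within 50 bp of the start of the principal GENCODE transcript for 51 of the 69. For the rest it lay further off, as for Mrpl1 (622 bp) and Mrpl20 (643 bp), so not every window covers the main promoter. Nuclear genes for mitochondrial proteins are often bound at the promoter by NRF1, by the ETS factor GABP and by YY1, and each window was searched on both strands for GCATGCGC (the NRF1 core), for the full NRF1 palindrome (GC followed by that core), for CCGGAAGT (GABP and other ETS factors) and for AAGATGGC (YY1). The core lies within the full NRF1 motif, so these counts overlap. At least 1 motif was in 29 of 69 windows (42.0%), against 16.1% of the windows of 10965 coding genes tested. The share was 4.35% against 2.00% for the NRF1 motif, 11.6% against 5.23% for its core, 17.4% against 7.63% for the ETS motif and 17.4% against 4.29% for the YY1 motif. A match is a run of letters and not a shown binding site. Shown here are the windows of Mrpl41, the 1 gene of the set called in the averaged exercise comparison below, and of Mrpl52, the most abundant per kb. They are followed by Mrpl9, which holds the full NRF1 motif, and Mrps11, whose window also spans the start of Mrpl46. Motifs are in capitals, each window is written 5′ to 3′ on the gene's strand, and that of Mrpl41 (chr2:24975049-24975348, minus strand) holds none of the 4.
Mrpl41: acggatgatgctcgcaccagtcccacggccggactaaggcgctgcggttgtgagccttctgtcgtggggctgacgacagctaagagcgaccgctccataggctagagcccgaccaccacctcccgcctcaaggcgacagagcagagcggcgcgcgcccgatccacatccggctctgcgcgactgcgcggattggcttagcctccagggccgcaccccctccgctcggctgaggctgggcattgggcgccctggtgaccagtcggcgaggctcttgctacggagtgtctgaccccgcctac
Mrpl52: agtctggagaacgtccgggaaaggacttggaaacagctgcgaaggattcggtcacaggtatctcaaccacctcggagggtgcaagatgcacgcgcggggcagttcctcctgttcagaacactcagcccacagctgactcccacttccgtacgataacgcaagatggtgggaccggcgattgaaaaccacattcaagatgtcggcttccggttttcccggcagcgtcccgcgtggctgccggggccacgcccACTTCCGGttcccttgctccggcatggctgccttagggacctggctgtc
Mrpl9: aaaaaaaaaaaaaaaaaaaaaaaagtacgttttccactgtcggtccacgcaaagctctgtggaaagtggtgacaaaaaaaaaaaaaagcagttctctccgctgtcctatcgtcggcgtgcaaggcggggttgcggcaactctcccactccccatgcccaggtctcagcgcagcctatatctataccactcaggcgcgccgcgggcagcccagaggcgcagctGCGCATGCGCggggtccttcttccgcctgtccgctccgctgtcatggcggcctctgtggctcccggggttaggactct
Mrps11: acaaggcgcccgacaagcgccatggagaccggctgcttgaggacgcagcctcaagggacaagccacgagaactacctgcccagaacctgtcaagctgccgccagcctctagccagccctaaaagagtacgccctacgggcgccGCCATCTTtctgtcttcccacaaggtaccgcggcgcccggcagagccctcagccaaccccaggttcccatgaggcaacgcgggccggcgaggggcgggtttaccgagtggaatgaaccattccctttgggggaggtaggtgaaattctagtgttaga

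The window of Mrpl52 (chr14:54426659-54426958, plus strand) holds the ETS motif on the opposite strand, just after the transcription start. That of Mrpl9 (chr3:94443086-94443385, plus strand) holds the palindromic NRF1 motif upstream of the start. Mrps11 (chr7:78782881-78783180, plus strand) is transcribed away from Mrpl46, with 30 bp between the annotated starts, so that a small-subunit and a large-subunit gene start from 1 short region. The YY1 motif lies in the window of Mrps11, and the window of Mrpl46 itself holds none of the motifs. Of the set, 22 of the 78 genes (28.2%) had a coding gene on the other strand that starts within 1000 bp and runs away from them, against 9.50% of 13957 coding genes tested. The partners include other genes of mitochondrial gene expression, such as Sars2 beside Mrps12 and Twnk, the mitochondrial DNA helicase, beside Mrpl43. For the pair that shares its start region, the levels were far apart, at 659 normalized reads per kb of transcript for Mrps11 and 87.5 for Mrpl46.

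Levels of the 78 genes spanned a wide range although their products are built into 1 particle. Compared per kb of the principal transcript, the levels ran from 69.9 to 5289 normalized reads per kb, a ratio of 75.6, with a median of 429; 67 of the 78 lay within a factor of 4 of that median. The highest level per kb was that of Mrpl52 (5289), followed by Mrps21 (2521), Mrps18a (1836), Mrps6 (1739) and Mrpl38 (1722). Mrpl52, Mrps18a and Mrpl38 belong to the mitochondria-specific proteins of the large subunit, and Mrps21 and Mrps6 are small-subunit proteins with bacterial counterparts. The lowest were Mrpl19 (69.9), Mrpl47 (75), Mrpl46 (87.5), Mrps25 (95) and Mrpl1 (105 normalized reads per kb). Both ends thus held large-subunit and small-subunit genes.

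**Figure D1:**
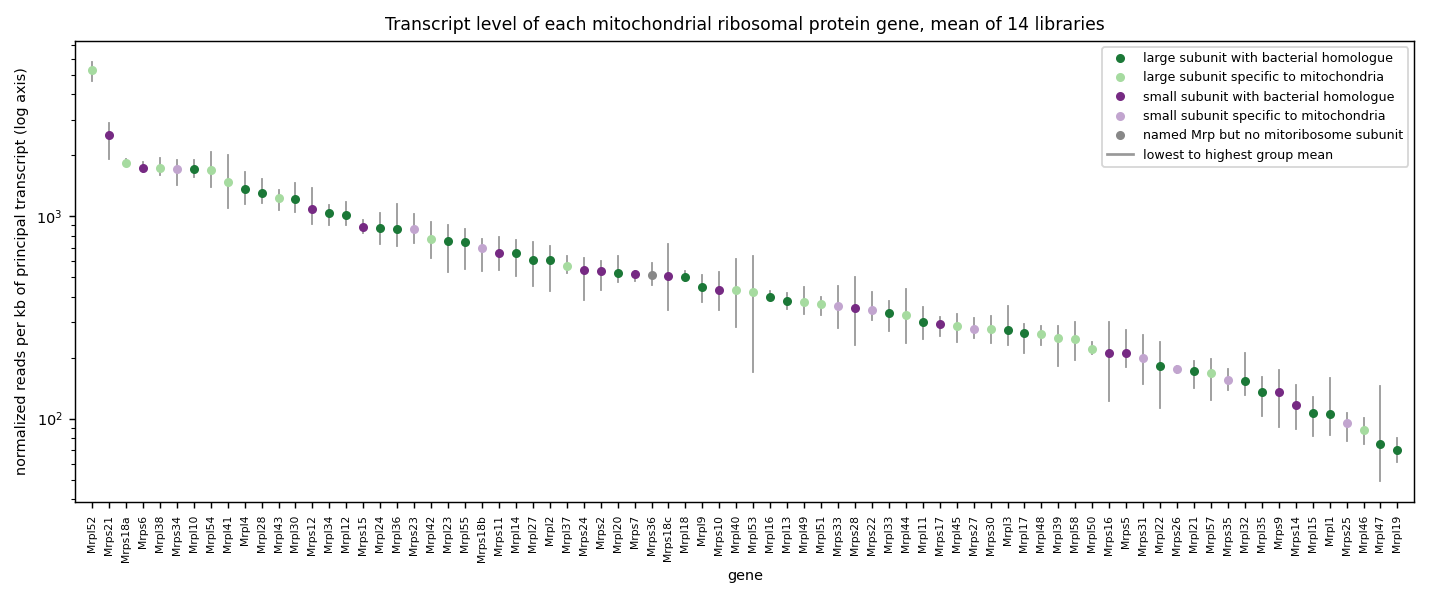
Level of each of the 78 genes in normalized reads per kb of its principal transcript (log axis, mean of 14 libraries), coloured by structural class, with a bar over the 4 group means. Levels run from 69.9 for Mrpl19 to 5289 for Mrpl52, and the classes are mixed along the order.

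By structural class, the median level per kb was 514 normalized reads for the 16 small-subunit proteins with a bacterial counterpart and 472 for the 30 such large-subunit proteins. It was 379 for the 21 large-subunit and 311 for the 10 small-subunit proteins specific to mitochondria. The ranges of the classes overlapped widely (117 to 2521, 69.9 to 1700, 87.5 to 5289 and 95 to 1715 normalized reads per kb, in the same order). Within groups, most of the genes were steady between libraries: the coefficient of variation within groups had a median of 20.4% and was under 25% for 50 genes. It was smallest for Mrps23 (9.70%), a small-subunit protein of the mitochondrial lineage, Mrps18a (11.1%) and Mrpl54 (11.2%). It passed 50% for Mrpl22 (55.6%), Mrpl46 (51.8%) and Mrpl53 (50.8%). Low counts accompany the first and second of these, whose means are the lowest of the set, while Mrpl53 is described below.

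The summed level of the set varied little between the libraries. Summed normalized reads were 62068, 57758 and 56969 in Vipr2-/- SVE libraries, 60824, 64747 and 76352 in Vipr2-/- nSVE, 61121, 64023, 61104 and 59787 in wild-type SVE, and 63057, 64402, 64618 and 64179 in wild-type nSVE. Apart from Vipr2-/- nSVE library 3, every library lay between 56969 and 64747. The 49 Mrpl genes summed to 34810 to 38505 in Vipr2-/- SVE against 38599 to 50918 in Vipr2-/- nSVE, and to 38312 to 41738 in wild-type SVE against 41791 to 42344 in wild-type nSVE. SVE libraries were thus below nSVE libraries without overlap in both genotypes, by a small margin. For the 29 Mrps genes the sums overlapped, at 20901 to 23563 in Vipr2-/- SVE against 22225 to 25434 in Vipr2-/- nSVE, and 21475 to 22750.0 in wild-type SVE against 21266 to 22426 in wild-type nSVE.

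**Figure D2:**
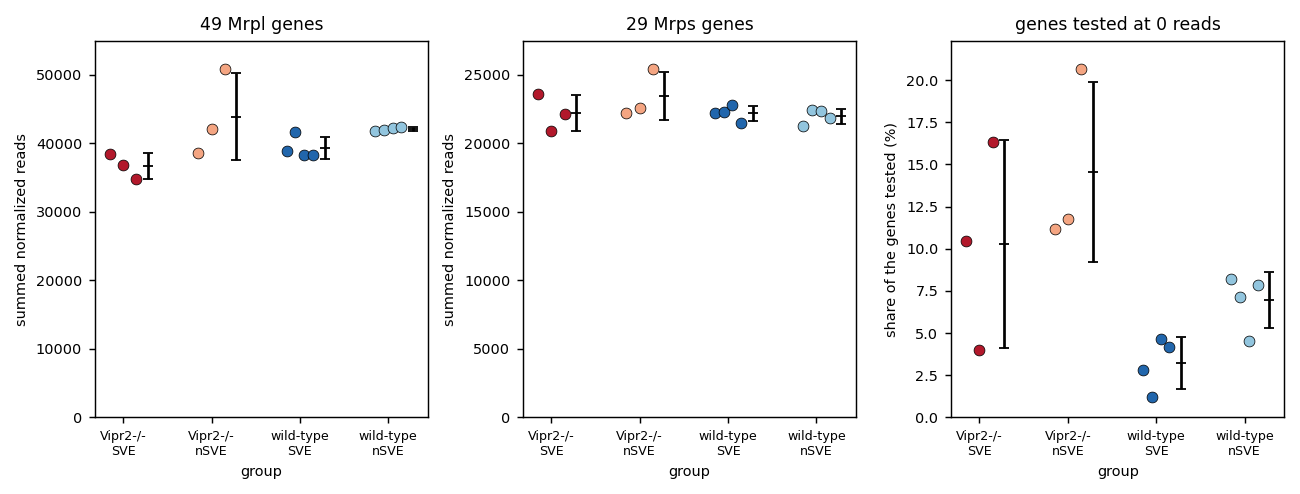
Summed normalized reads of the 49 Mrpl and 29 Mrps genes, and the share of the genes tested at 0 reads (%), in each of the 14 libraries (points) by group, with the mean and SD beside them. Mrpl sums are lower in SVE than in nSVE libraries of both genotypes, Mrps sums overlap, and Vipr2-/- nSVE library 3 has the highest sums and the largest share at 0 (20.7%).

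The library-wide share of genes at 0 and the share of reads on CT010467.1, an rRNA gene, were also lower on average under SVE. CT010467.1 took 3.22% ± 0.518 of the reads in Vipr2-/- SVE and 11.5% ± 7.75 in Vipr2-/- nSVE (SD, n = 3 each), and 5.18% ± 5.21 in wild-type SVE and 15.03% ± 8.11 in wild-type nSVE (SD, n = 4 each). All 7 astrocyte and all 6 oligodendrocyte markers measured were present in every library and had a negative averaged exercise effect (medians -0.20 and -0.21, 0 called by limma). The astrocyte markers summed to 51362 to 71888 normalized reads in Vipr2-/- SVE against 56613 to 62024 in Vipr2-/- nSVE, and to 46434 to 49702 in wild-type SVE against 55274 to 64363 in wild-type nSVE. The oligodendrocyte markers summed to 56418 to 86489.7 in Vipr2-/- SVE against 58255 to 71448 in Vipr2-/- nSVE, and to 44136 to 66759 in wild-type SVE against 69165 to 94897 in wild-type nSVE. Of the 10 SCN neuron markers, 7 had a positive averaged exercise effect (median 0.24), with Rgs16, Nms and Prok2 called higher and Vip called lower by limma. They summed to 70054 to 80075 normalized reads in Vipr2-/- SVE against 68727 to 75803 in Vipr2-/- nSVE, and to 90947 to 104611 in wild-type SVE against 78702 to 82125 in wild-type nSVE, without overlap in the wild type. The part of these measures in the lower Mrpl sums was not tested.

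**Figure D3:**
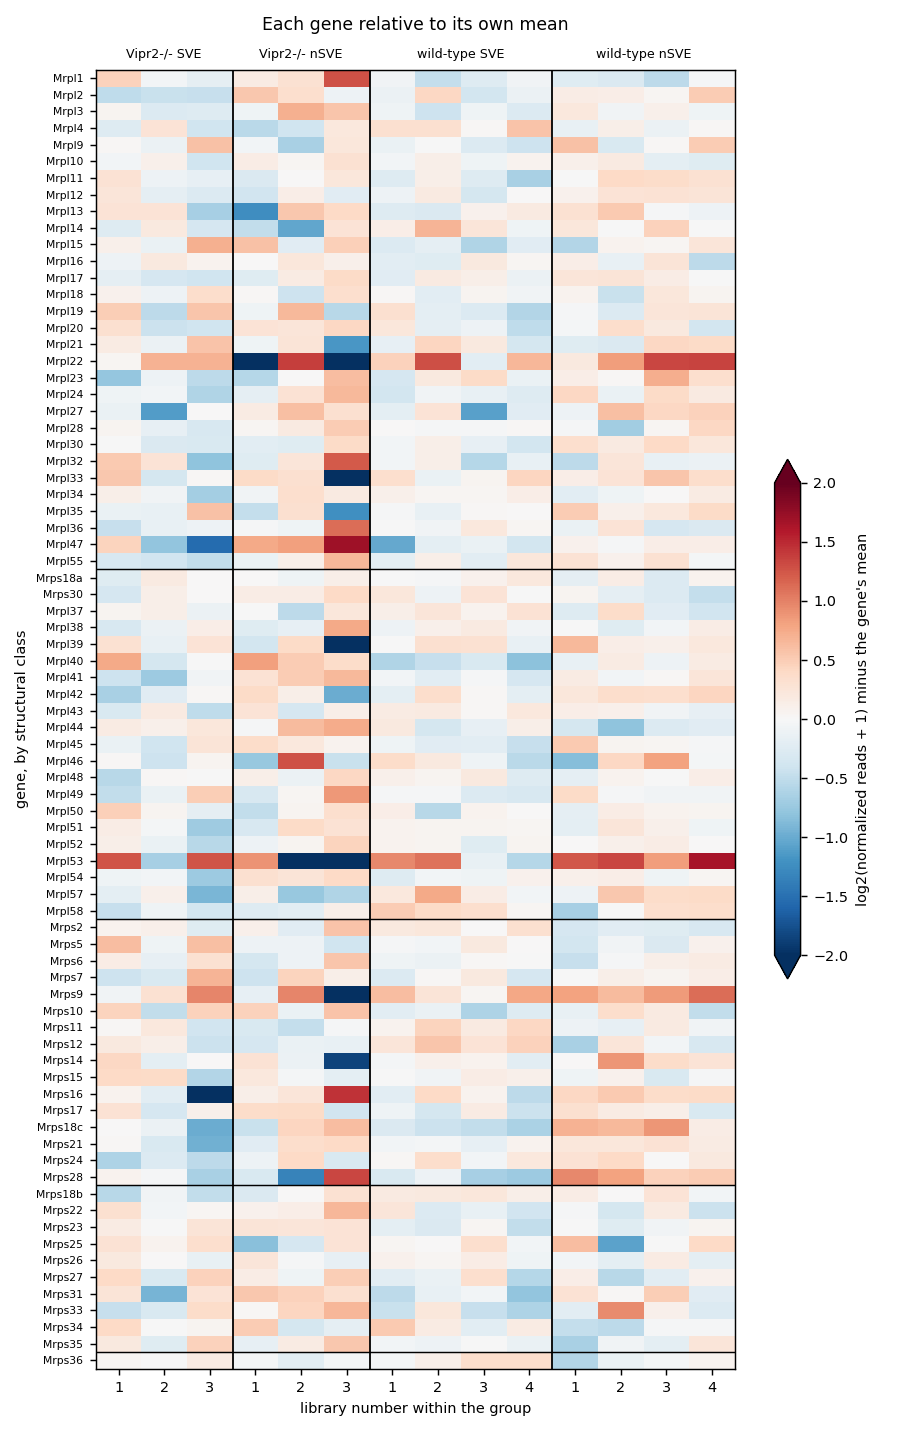
The 78 genes (rows, by structural class, lines between classes) in the 14 libraries (columns, by group) as log2(normalized reads + 1) minus the gene's mean over libraries. Most cells are pale; strong colours sit in Mrpl22, Mrpl53, Mrpl47 and Mrps9 and in Vipr2-/- nSVE library 3.

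Differences between groups were tested per gene with limma on log2(normalized reads + 1), with Benjamini-Hochberg adjustment over the 18175 genes and a call at an adjusted p under 0.05. Effects are log2 fold changes on that scale. Genes named below for a small p were picked by that p, so groups without overlap are frequent among them by choice. Such separation is given as description and adds nothing to the test. No mitochondrial ribosomal gene passed this test between Vipr2-/- and wild-type SCN. Under nSVE, where Vipr2-/- mice were set against wild type in free run, limma called 0 of the 78 (0.611% of all genes tested were called). edgeR also called 0 (0.435% of all genes) and DESeq2 called 1, Mrpl44 (3.03% of all genes). At an unadjusted p under 0.05 limma gave 8 genes as higher (4.89% of all genes) and 8 as lower (9.45%). The median effect of the 78 was 0.04, with 45 above 0 and 33 below, against -0.10 for all genes tested and -0.04 for the 10447 genes with a mean in the range of the set (genes of like level). For 55 of the 78, the 95% interval of the effect lay within 1 log2 unit of 0.

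The genes with the smallest p under nSVE were Mrpl53, Mrpl44 and Mrpl1. Mrpl44 encodes a large-subunit protein with a ribonuclease III-like fold. It had 435, 686 and 746 normalized reads in Vipr2-/- nSVE, against 346, 253, 366 and 379 in wild-type nSVE. All Vipr2-/- values were above the wild-type ones, with a log2 fold change of 0.87 ± 0.247 (SE, limma adjusted p = 0.138). Of the single omissions, only that of Vipr2-/- nSVE library 1 made it pass (1.10, limma adjusted p = 0.0426), with 1.48% of all genes called. Mrpl44 shares 126 bases of exon with Wdfy1 on the opposite strand, which had 377, 673 and 189 normalized reads in Vipr2-/- nSVE and 2034 to 2597 in wild-type nSVE. Whether reads were counted by strand is not given in the sources used here, so reads of the 2 genes over these bases cannot be told apart.

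Mrpl1, whose product forms the mobile L1 stalk at the exit site, had 398, 435 and 855 normalized reads in Vipr2-/- nSVE, against 299, 289, 244 and 348 in wild-type nSVE. The groups did not overlap, but the highest value was that of library 3, and the change of 0.85 ± 0.295 did not pass (SE, limma adjusted p = 0.224). Mrpl22, which lines the exit tunnel for the growing chain, ran the other way. It had 0, 227 and 16.8 normalized reads in Vipr2-/- nSVE against 99.0, 154, 218 and 222 in wild-type nSVE; the 0 in library 1 allows up to 4.35 normalized reads, the worth of 3 reads there. The Vipr2-/- values spanned the wild-type ones, and the fitted change of -3.38 (limma adjusted p = 0.232) depends on the pseudocount. A value of 0 also occurred in Mrps9, in Vipr2-/- nSVE library 3, beside 120 and 267 in the other libraries of that group.

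Mrpl53, a mitochondria-specific protein of the large subunit, had 338, 12.3 and 3.37 normalized reads in Vipr2-/- nSVE, against 426, 455, 323 and 569.8 in wild-type nSVE. Its log2 fold change of -4.01 ± 1.03 had the smallest p of the set (SE, limma adjusted p = 0.104). All 695 bases of its principal transcript (ENSMUSG00000030037.9; chr6:83109040-83109939, plus strand) are also exonic in Gm42688 on the same strand, so its count is uncertain. Gm42688 ran opposite to it: 239, 470.4 and 729.98 normalized reads in Vipr2-/- nSVE against 261, 296, 412 and 287 in wild-type nSVE. In Vipr2-/- SVE, Mrpl53 had 431, 114 and 435 normalized reads beside 115, 452 and 0 of Gm42688, and in wild-type SVE 353, 386, 163 and 120.5 beside 366, 604, 512 and 568.2. The 2 genes together had 578, 483 and 733 normalized reads in Vipr2-/- nSVE and 687, 751, 735 and 857 in wild-type nSVE. The change of this sum was -0.36 ± 0.200 (SE, limma adjusted p = 0.430). Without Vipr2-/- nSVE library 1, the only one of its group with over 100 reads of Mrpl53, the change of Mrpl53 alone passed (-5.84, limma adjusted p = 0.000382). With that omission 1.48% of all genes were called, and no other single omission made Mrpl53 pass. How the authors' counting assigned reads to the pair was not tested.

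**Figure D4:**
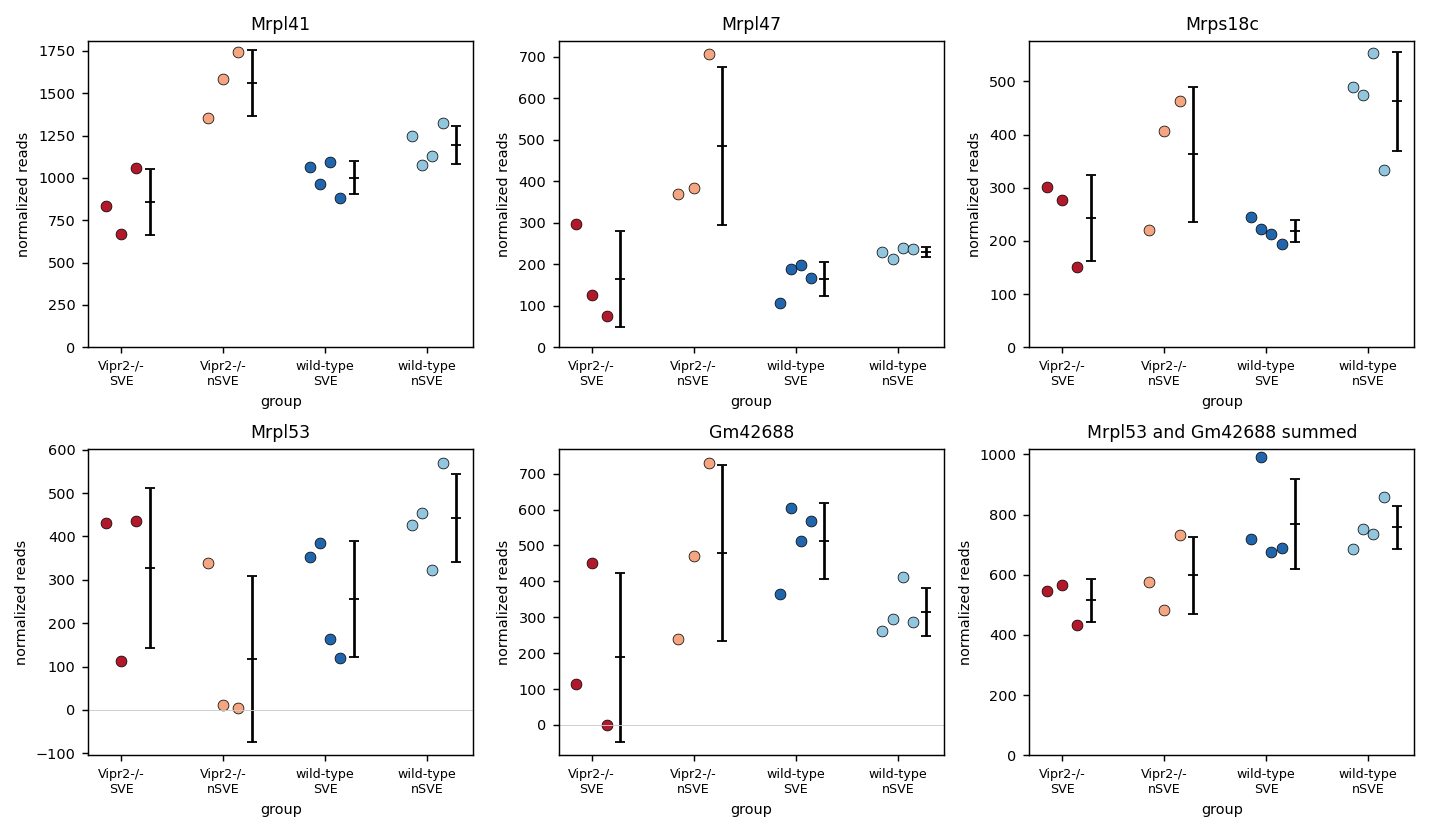
Normalized reads of Mrpl41, Mrpl47, Mrps18c, Mrpl53, Gm42688 and the sum of the last pair, in each library (points) by group, with the mean and SD (bars below 0 only mark a SD larger than the mean). Mrpl41 is lower on average in SVE than in nSVE libraries, without overlap in Vipr2-/- and with overlap in wild type. The sum of Mrpl53 and Gm42688 stays between 435 and 990.1 where Mrpl53 alone goes down to 3.37 and Gm42688 alone to 0.

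Under SVE, limma again called 0 of the 78 between Vipr2-/- and wild type (0.176% of all genes tested), as did edgeR (0.121%) and DESeq2 (5.37%). Without adjustment, at a p under 0.05, limma gave 2 as higher (5.10% of all genes) and 4 as lower (9.92%). The median effect was -0.03, with 35 above 0 and 43 below, beside -0.10 over all genes tested and 0.0060 over genes of like level. Mrps18b, 1 of a trio of paralogues related to bacterial S18, had 502, 701 and 523 normalized reads in Vipr2-/- SVE, against 835, 846, 866 and 796 in wild-type SVE. The groups were separate, with a change of -0.55 ± 0.181 (SE, limma adjusted p = 0.198). Of the single omissions, only that of Vipr2-/- SVE library 2 made it pass (-0.70, limma adjusted p = 0.0431), and there 6.05% of all genes were called. Another locus, Gm13552, matches 417 bases of Mrps18b at 99.8% identity and averaged 97.5 normalized reads. Mrps24, counterpart of bacterial S3 at the mRNA entry, had 346, 438 and 366 normalized reads in Vipr2-/- SVE against 536, 672, 510.4 and 610.05 in wild-type SVE, also without overlap (-0.60 ± 0.213 SE, limma adjusted p = 0.224). It shares 226 exon bases with Urgcp on the same strand, so part of its count is uncertain.

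Averaged over nSVE and SVE, the genotypes differed in 0 of the 78 by limma (1.18% of all genes tested). edgeR called 0 (0.721% of all genes) and DESeq2 called 2, Mrpl40 and Mrps23 (4.57% of all genes). Before adjustment 12 genes had a p under 0.05 in limma, 5 as higher (5.82% of all genes) and 7 as lower (12.0%). The median effect was -0.01 (38 above 0, 40 below), beside -0.12 for all genes tested and -0.03 for genes of like level, and for 68 of the 78 the 95% interval lay within 1 log2 unit of 0. Mrpl40, a mitochondria-specific large-subunit protein, had 889.6, 410.5 and 523 normalized reads in Vipr2-/- SVE against 345, 381, 427 and 296 in wild-type SVE. Under nSVE it had 932, 746 and 674 in Vipr2-/- against 473, 591, 491 and 589.9 in wild type. Vipr2-/- values were thus higher without overlap under nSVE and overlapped by 1 library under SVE (averaged change 0.61 ± 0.178 SE, limma adjusted p = 0.101). Of the single omissions, only that of Vipr2-/- SVE library 2 made the averaged change pass (0.73, limma adjusted p = 0.0258), with 5.54% of all genes called.

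Mrps23 had 1269.9, 1137 and 1367 normalized reads in Vipr2-/- SVE against 993, 936, 1176 and 808 in wild-type SVE. Under nSVE it had 1361, 1348 and 1382.5 in Vipr2-/- against 1134, 962, 1082 and 1186 in wild type. The pattern was like that of Mrpl40, with a smaller change of 0.35 ± 0.103 (SE, limma adjusted p = 0.103). Mrpl57, a small mitochondria-specific protein of the large subunit, was also among the 3 genes of smallest p, at 379 ± 126 in Vipr2-/- SVE against 565 ± 146 in wild-type SVE, and 356 ± 122 in Vipr2-/- nSVE against 569.5 ± 101 normalized reads in wild-type nSVE (SD, n = 3 for each Vipr2-/- and 4 for each wild-type group). Its values overlapped in both conditions (-0.66, limma adjusted p = 0.129).

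With exercise, 1 gene of the set changed: Mrpl41, a mitochondria-specific large-subunit protein, fell when SVE was set against nSVE over both genotypes. Mrpl41 (ENSMUSG00000036850.4; chr2:24974117-24975098, minus strand) had 837, 671 and 1059.6 normalized reads in Vipr2-/- SVE, against 1355, 1586 and 1741 in Vipr2-/- nSVE. In the wild type it had 1067, 961, 1096 and 882 under SVE against 1249.6, 1075, 1129 and 1321 under nSVE. The Vipr2-/- groups were separate, and the wild-type groups overlapped by 1 library on each side. Its averaged change was -0.57 ± 0.117 (SE; 95% interval -0.82 to -0.32; limma adjusted p = 0.0285). Within Vipr2-/- the change was -0.88 ± 0.177 (SE, limma adjusted p = 0.0748). Of the single omissions, it passed there only without Vipr2-/- nSVE library 1 (-0.98, limma adjusted p = 0.0298, 0.974% of all genes called) and without Vipr2-/- SVE library 3 (-1.05, limma adjusted p = 0.0331, 0.121% called). Within wild type it was -0.25 ± 0.153 (SE, limma adjusted p = 0.569), and the difference between the genotypes, -0.63 ± 0.234, did not pass (SE, limma adjusted p = 0.425).

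The call for Mrpl41 lay close to the threshold. With the share of genes at 0 as a covariate the change was -0.40 (adjusted p = 0.110) and with the CT010467.1 share it was -0.62 (adjusted p = 0.262), both in limma. It had an adjusted p of 0.0880 after the GC and length correction and 0.0509 with a replicate block. Leaving out wild-type nSVE library 1, 3 or 4, wild-type SVE library 1 or 4, or Vipr2-/- SVE library 2 also ended the call, with adjusted p of 0.0619, 0.0524, 0.0583, 0.0608, 0.0734 and 0.0551 in that order; over all 14 omissions the change lay between -0.65 and -0.49. A pseudogene-like locus, Gm6434, matches 372 bases of Mrpl41 at 97.8% identity but averaged 11.6 normalized reads, against 1145 for Mrpl41.

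Over the whole set, limma called this 1 gene in the averaged exercise comparison, against 1.45% of all genes tested and 0.457% called as lower. edgeR called the same gene alone (1.30% of all genes), and DESeq2 called Mrpl41, Mrpl24, Mrpl47 and Mrps18c (5.15% of all genes). At an unadjusted p under 0.05 limma gave 2 as higher (9.19% of all genes) and 16 as lower (5.85%). The median effect of the 78 was -0.11, with 29 above 0 and 49 below, beside 0.05 for all genes tested and 0.01 for genes of like level. It was -0.11 with TMM scaling too and -0.13 after correction for GC content and length. For 67 of the 78 the 95% interval lay within 1 log2 unit of 0.

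**Figure D5:**
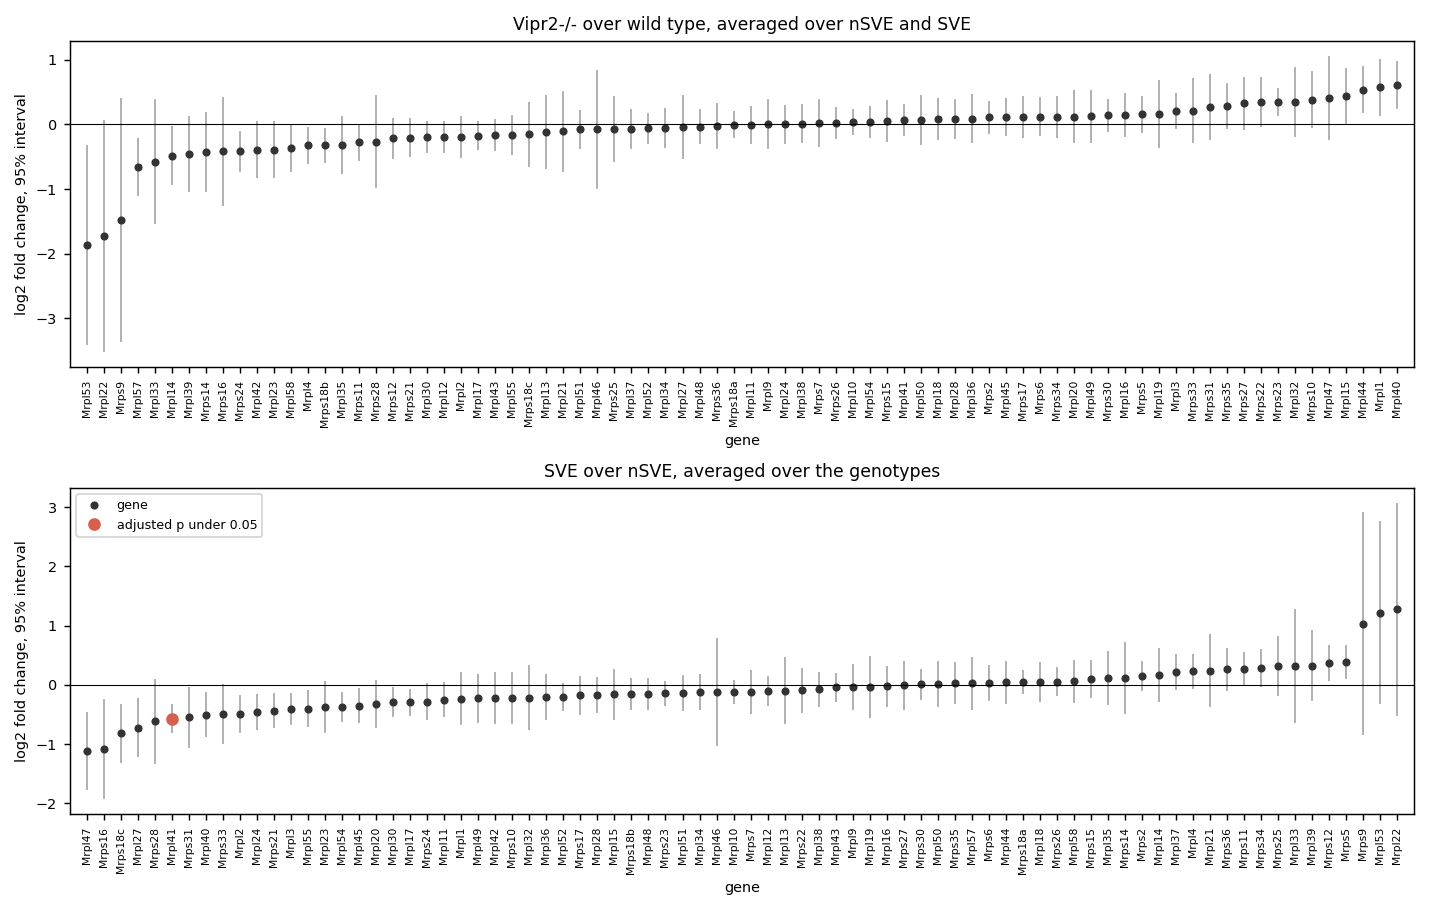
Log2 fold changes of the 78 genes with 95% intervals, each panel in rising order: Vipr2-/- over wild type averaged over the conditions (upper panel) and SVE over nSVE averaged over the genotypes (lower panel). Most effects lie near 0, and only Mrpl41 in the exercise comparison (large point, -0.57) passed the threshold.

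In the averaged exercise comparison, values below 0 were more frequent among Mrpl than among Mrps genes. Among the 49 Mrpl genes the median averaged exercise effect was -0.14, with 35 below 0 and 12 lower at an unadjusted limma p under 0.05. Among the 29 Mrps genes it was 0.01, with 14 below 0 and 4 lower at that p. Over all genes tested 7928 of 18175 were below 0, and 5.85% were lower at that p. Of the 10447 genes of like level, 5019 were below 0. By structure, the medians were -0.16 for large-subunit proteins with a bacterial counterpart (23 of 30 below 0), -0.08 for mitochondria-specific ones of the large subunit (12 of 21), -0.04 for small-subunit proteins with a counterpart (8 of 16) and -0.05 for those specific to mitochondria (6 of 10). Within wild type, 34 of 49 Mrpl and 14 of 29 Mrps genes were below 0. Within Vipr2-/- the shares were closer, with 32 of 49 Mrpl and 18 of 29 Mrps genes below 0. Whether the subunits differ was not tested.

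The 16 lower genes and 2 higher genes at an unadjusted limma p under 0.05 had effects between -1.11 and 0.39. All of them but Mrpl41 were below the level of a call. Beside Mrpl41, Mrpl47 and Mrps18c, the lower ones were Mrps16, Mrpl27, Mrps31, Mrpl40, Mrpl2, Mrpl24, Mrps21, Mrpl3, Mrpl55, Mrpl54, Mrpl45, Mrpl30 and Mrpl17, with limma adjusted p between 0.126 and 0.284. Several of these, such as Mrpl2, Mrpl3 and Mrpl24, are counterparts of bacterial proteins that fold the rRNA core of the large subunit. The higher ones were Mrps5 and Mrps12, both small-subunit proteins near the path of the mRNA (0.39 and 0.37, limma adjusted p = 0.161 and 0.231). Mrps21, the most abundant small-subunit transcript per kb, had 1157, 1172, 1068 and 1257 normalized reads in wild-type SVE, against 1410.3, 1406, 1466 and 1341 in wild-type nSVE. The wild-type groups were separate, whereas in Vipr2-/- mice 1218, 974 and 618 under SVE overlapped with 1026, 1535 and 1578 under nSVE (averaged change -0.43 ± 0.142 SE, limma adjusted p = 0.147).

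Within Vipr2-/- mice, SVE against nSVE gave 0 calls among the 78 in limma (0.116% of all genes tested) and in edgeR (0.0330%), and 2 in DESeq2, Mrpl41 and Mrpl47 (2.23% of all genes). At an unadjusted p under 0.05 limma gave 3 as higher (8.16% of all genes) and 11 as lower (5.68%). The median effect was -0.15, with 28 above 0 and 50 below, and 0.04 over all genes tested and 0.03 over genes of like level. Mrpl47, counterpart of bacterial L29 at the exit of the peptide tunnel, had 296, 126 and 74.4 normalized reads in Vipr2-/- SVE, against 369, 383 and 706 in Vipr2-/- nSVE. These groups were separate (-1.71 ± 0.467 SE, limma adjusted p = 0.174). In wild type it had 106, 188, 197.5 and 167 under SVE against 231, 212, 238 and 237 under nSVE, separate as well. The averaged change was -1.11 ± 0.309 (SE, limma adjusted p = 0.0868). Of the single omissions, only that of Vipr2-/- SVE library 1 made the averaged change pass (-1.38, limma adjusted p = 0.0244), with 1.6% of all genes called. Mrpl47 shares 616 exon bases with Ndufb5, a gene of complex I on the opposite strand. Ndufb5 had 1933 to 2968 normalized reads in Vipr2-/- SVE and 2297 to 2785 in Vipr2-/- nSVE. In wild type it had 1967 to 2310 under SVE against 2368 to 2934 under nSVE, without overlap (-0.30 ± 0.131 SE, limma adjusted p = 0.352). Since it is not given whether reads were counted by strand, reads of Mrpl47 and Ndufb5 over these bases cannot be told apart.

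Mrpl54, another mitochondria-specific large-subunit gene, had 950.5, 971 and 609 normalized reads in Vipr2-/- SVE, against 1255, 1195 and 1324 in Vipr2-/- nSVE. The groups were separate in Vipr2-/- (-0.61 ± 0.179 SE, limma adjusted p = 0.198). In the wild type they overlapped, at 835 to 1063 under SVE against 950.1 to 1096 under nSVE.

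Within wild type, SVE against nSVE gave 0 calls among the 78 in limma (1.28% of all genes tested) and in edgeR (0.990%), and 1 in DESeq2, Mrps18c (6.80% of all genes). At an unadjusted p under 0.05 limma gave 2 as higher (7.98% of all genes) and 8 as lower (4.51%). The median effect was -0.12 (30 above 0, 48 below), with 0.03 over all genes tested and -0.02 over genes of like level. The exercise comparisons of the genotypes share no libraries.

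Mrps18c, the paralogue closest to bacterial S18, had 245, 222, 214 and 194 normalized reads in wild-type SVE, against 490.4, 474, 554 and 333 in wild-type nSVE. No values overlapped, and the change was -1.06 ± 0.309 (SE, limma adjusted p = 0.119). In Vipr2-/- mice it had 302, 276 and 150.2 under SVE against 221, 406 and 463 under nSVE, which overlapped. The averaged change was -0.82 ± 0.236 (SE, limma adjusted p = 0.0974). Of the single omissions, only that of Vipr2-/- nSVE library 1 made the averaged change pass (-0.98, limma adjusted p = 0.0349), with 2.45% of all genes called. A pair of small-subunit genes ran the other way in wild type. Mrps12, counterpart of bacterial S12 in the decoding centre, had 1102, 1372, 1122 and 1281 normalized reads under SVE, against 597, 1105, 898 and 749 under nSVE, with overlap by 1 library (0.57 ± 0.191 SE, limma adjusted p = 0.181).

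Mrps2, counterpart of bacterial S2 between the head and body of the subunit, had 1251, 1285, 1098 and 1364 normalized reads in wild-type SVE, against 861, 929, 919.6 and 877 in wild-type nSVE. These did not overlap (0.47 ± 0.159 SE, limma adjusted p = 0.183). In Vipr2-/- mice the values overlapped, at 1151, 1175 and 922 under SVE against 1169.7, 935 and 1622 under nSVE.

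Whether exercise acted differently in the genotypes was tested by the interaction. limma called 0 of the 78 (0.0220% of all genes tested), as did edgeR (0.0330%) and DESeq2 (0.970%). Without adjustment, at a p under 0.05, limma gave 1 as higher (4.87% of all genes) and 3 as lower (5.45%). The smallest p values were those of Mrpl53 (4.30, limma adjusted p = 0.394, and 0.00804 without Vipr2-/- nSVE library 1), Mrpl41 and Mrps2 (-0.64, limma adjusted p = 0.430). With that omission 0.198% of all genes were called, and no other single omission made Mrpl53 pass. For Mrpl53 summed with Gm42688 the interaction was -0.21 (limma adjusted p = 0.802). The interaction is the least precise of these comparisons, since the 95% interval lay within 1 log2 unit of 0 for 35 of the 78.

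Other genes that build, run or feed the mitochondrial ribosome gave 2 calls, 1 for exercise in wild type and 1 for the averaged genotype comparison, where 1.28% and 1.18% of all genes tested were called. Of 5 subunit genes with other names (such as Chchd1), 10 translation factors, 24 assembly and rRNA modification factors, 9 genes of mitochondrial transcription and mRNA handling and 8 regulators of mitochondrial biogenesis, none passed in any comparison by limma. The nearest by p were as follows. Chchd1, a small-subunit protein, had 368, 352 and 812 normalized reads in Vipr2-/- SVE against 392, 298, 249 and 349 in wild-type SVE, and 778, 875 and 532 in Vipr2-/- nSVE against 449.5, 401, 427 and 507 in wild-type nSVE. Vipr2-/- values were higher without overlap under nSVE, with overlap under SVE, and the averaged change was 0.63 ± 0.209 (SE, limma adjusted p = 0.142). C1qbp, a matrix protein needed for mitochondrial translation, averaged 1389.5 ± 199 in Vipr2-/- SVE against 1154 ± 87.9 in wild-type SVE, and 1272 ± 254 in Vipr2-/- nSVE against 899 ± 55.5 normalized reads in wild-type nSVE (SD, n = 3 for each Vipr2-/- and 4 for each wild-type group). Its averaged genotype change was 0.37 ± 0.108 (SE, limma adjusted p = 0.0979).

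Gfm1, the elongation factor that moves the mitochondrial ribosome along the mRNA, had 791, 593 and 729 normalized reads in Vipr2-/- SVE, against 557, 383 and 397 in Vipr2-/- nSVE. The groups were separate, and the change was 0.67 ± 0.232 (SE, limma adjusted p = 0.246). Ppargc1a, the coactivator PGC-1α of mitochondrial biogenesis, had 492, 313 and 110.3 normalized reads in Vipr2-/- nSVE, against 530.3, 558, 359 and 709.7 in wild-type nSVE. These overlapped by 1 library, with a change of -1.02 ± 0.412 (SE, limma adjusted p = 0.287). The related gene Pprc1 averaged 1654 ± 374 in Vipr2-/- SVE and 1243 ± 223 in Vipr2-/- nSVE (SD, n = 3 each), and 1874 ± 125 in wild-type SVE and 1583 ± 277 normalized reads in wild-type nSVE (SD, n = 4 each). Its averaged exercise change was 0.33 ± 0.122 (SE, limma adjusted p = 0.199).

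Of the 17 mitochondrial aminoacyl-tRNA synthetases, Vars2, which charges valine tRNA, rose with SVE in wild type. It had 1283, 974, 1276 and 1389 normalized reads under SVE, against 779, 769.9, 755 and 653 under nSVE (0.73 ± 0.145 SE, limma adjusted p = 0.0243). Among the 15 mitochondrial rRNAs and mRNAs, the products that the ribosome is built on or translates, mt-Atp6, an ATP synthase subunit, was higher in Vipr2-/- averaged over the conditions. It averaged 87664 ± 12532 in Vipr2-/- SVE against 56454 ± 7392 in wild-type SVE, and 101798 ± 21743 in Vipr2-/- nSVE against 65422 ± 18125 normalized reads in wild-type nSVE (SD, n = 3 and 4), a change of 0.65 ± 0.146 (SE, limma adjusted p = 0.0435). Of the 15, 9 were above 0 in that comparison and 6 below (median 0.08). The other ATP synthase gene of the list, mt-Atp8, overlapped between the genotypes. It had 1437 to 2440 normalized reads in Vipr2-/- SVE against 1329 to 2058 in wild-type SVE. Under nSVE it had 406 to 2332 in Vipr2-/- against 1223 to 3100 in wild type. The 16S rRNA of the large subunit, mt-Rnr2, had 33640 to 39794 normalized reads in wild-type SVE against 53468 to 96120 in wild-type nSVE, without overlap, and its change of -1.01 ± 0.267 did not pass (SE, limma adjusted p = 0.0832). The other mitochondrial rRNA, mt-Rnr1, overlapped, at 24898 to 30054 against 26116 to 60225. The share of reads on the rRNA gene CT010467.1 was also lower in wild-type SVE (5.18% ± 5.21) than in wild-type nSVE (15.03% ± 8.11; SD, n = 4 each). The part of rRNA left in the libraries in the mt-Rnr2 values was not tested.

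Several members share sequence with other genes, which bears on how far a single count can be read. Exons of 33 of the 78 overlapped those of another gene, on the same strand for 8 and on the opposite strand for 28, and 18 had another gene with at least 95% identity over at least 200 bases. The closest case was Mrpl23, identical to its pseudogene Mrpl23-ps1 over 540 bases. The pseudogene averaged 886 normalized reads over the 14 libraries, more than the 519 of Mrpl23 itself, so counts of the pair are uncertain.

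Ribosomal protein genes of the cytosol, measured in the same libraries, give a scale for these sizes. Of 77 such genes, 75 were below 0 in the averaged exercise comparison, with a median effect of -0.39 and 16 called as lower by limma. The mitochondrial set had 49 of 78 below 0, a median of -0.11 and 1 called. Over all genes tested the median was 0.05, with 1.45% called and 0.457% called as lower. With the CT010467.1 share as a covariate, 0% of all genes were called in this comparison. In the averaged genotype comparison the medians were -0.14 for the cytosolic and -0.01 for the mitochondrial set. The difference between the sets was not tested.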

How the data were processed

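Total RNA of laser-cut mouse SCN was sequenced as paired ends in 14 libraries, grouped by sample title. FastQC, Trimmomatic, HISAT2, StringTie and DESeq2 are named, without versions, per the submitters' processing notes. Each deposited value is a signal, the gene's read count that the authors had scaled by a DESeq2 size factor. Dividing by the step of each library gave back whole reads, within 0.001 of an integer for 100% of positive values, and so the depths. The design text names GRCm38 and the notes GRCm39; 54349 of 55401 gene identifiers, with identical coordinates, are in GENCODE M21 (GRCm38), so coordinates are given in that build.

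The tests took the 18175 genes that reached 10 in 3 or more libraries, all 78 of the set among them. Values were fitted as log2(value + 1) by limma 3.58.1 under R 4.3.3, using the trend of variance on level and 1 mean per group over all 14 libraries; adjusted p-values are Benjamini-Hochberg over genes within a comparison. Comparisons share libraries: both genotype comparisons draw on the groups of the exercise comparisons. No test was made over the set as a whole. The set, the gene lists and the alternatives were chosen with earlier results of these data known. Named genes are those called, the 3 with the smallest p per comparison, the 5 highest and lowest per kb, the 3 steadiest and most variable and the 3 of lowest mean, plus called or smallest-p genes of the related lists. Any other gene named, including those listed at an unadjusted p under 0.05, those whose sequence is shown and those that overlap, match or neighbour a named gene, was chosen after its values were seen. The limit given for a value of 0 covers counting error only, while 95% intervals of effects are limma's and rest on the variation among libraries. Levels per kb use the length of the principal transcript in GENCODE. Alternatives were pseudocounts of 0.5 and 10, other filters, TMM scaling, array weights, a replicate block, edgeR 4.0.16, DESeq2 1.42.0, covariates, a GC and length correction and left-out libraries; the sum of Mrpl53 and Gm42688 was added after the data were seen. The scripts were tested on simulated data.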

Additional observations from a re-analysis of the deposited data

Results flagged for a closer look

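Among 56 groups of 4 libraries checked (the named genes and the summed levels of the set, in wild-type SVE and wild-type nSVE), 1 held a library far from the others by Dixon's ratio; chance gives about 1 in 20. It was Mrpl52 in wild-type SVE, where library 3 had 1859 normalized reads and the others 2268 to 2291. Groups of 3 were not tested. No gene of the set passed the interaction test.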

How the results depend on the processing

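The set's median log2 fold change was recomputed 214 times over the 7 comparisons and moved by more than the spread between replicates in 2: to -0.054 with array weights for the genotypes under nSVE, and to 0.080 with the GC and length correction for the genotypes under SVE. Without each library in turn it lay between 0.00 and 0.11 (genotypes under nSVE), -0.10 and -0.00 (under SVE), -0.04 and 0.02 (averaged), -0.16 and -0.08 (exercise in wild type), -0.23 and -0.07 (in Vipr2-/-), -0.14 and -0.08 (averaged) and -0.17 and -0.02 (interaction).

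Numbers of genes called moved more. In the averaged exercise comparison 4 were called by DESeq2 and 0 with the replicate block, the share of genes at 0 or the rRNA share as covariate, or the GC and length correction, where 0.594%, 0.314%, 0% and 1.19% of all genes were called. In wild type, exercise gave 8 with array weights (9.31% of all genes), 1 with DESeq2, 3 with only the compared groups in the fit (6.61%) and 3 without the library with most genes at 0 of each Vipr2-/- group (4.07%); Mrps2, Mrps18c and Mrps28 were the genes in both of the last. In Vipr2-/- it gave 2 with DESeq2 and 1, Mrpl41, without those libraries (0.215%). Under nSVE the genotypes differed in 1 with DESeq2 and in 1, Mrps28, without those libraries (1.28%), and averaged in 2 with DESeq2 and 3 with the GC and length correction (Mrps23, Mrpl40 and Mrpl44; 2.81%). Shares for DESeq2 stand beside its calls above. The causes were not tested. Without 1 library each, the counts ran from 0 to 5 (exercise averaged), 0 to 3 (in Vipr2-/-), 0 to 0 (in wild type), 0 to 2 (genotypes under nSVE and under SVE), 0 to 1 (averaged) and 0 to 1 (interaction). Over the same omissions the share of all genes called ran from 0.347% to 2.45% (exercise averaged), 0.0330% to 0.974% (in Vipr2-/-), 0.160% to 2.36% (in wild type), 0.198% to 1.48% (genotypes under nSVE), 0.0550% to 6.05% (under SVE), 0.462% to 5.54% (averaged) and 0.0055% to 0.198% (interaction). The 5 came without Vipr2-/- nSVE library 1, the library of that group in which Mrpl53 was high, and included Mrpl53, Mrpl24, Mrpl3 and Mrps18c. Mrpl22 was called in 3 comparisons without Vipr2-/- nSVE library 2, which held its highest value there. Mrpl41 was no longer called without wild-type nSVE library 1, 3 or 4, wild-type SVE library 1 or 4, or Vipr2-/- SVE library 2. Of 629 recomputed values of single named genes, 590 kept direction and side of the threshold, 10 were no longer called, 28 became called and 1 reversed, the Mrpl53 interaction, which was -0.21 once Gm42688 was added.

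Correlations between same-numbered libraries were small (19 pairs, r between -0.05 and 0.12, 1 over 0.1). For 9 of 14 libraries, however, the best correlation outside the group was with a library of the same number. These values do not settle whether same-numbered libraries belong together. The main fit assumed no pairing because no label gives one. With the replicate block Mrpl41 had an adjusted p of 0.0509 in the averaged exercise comparison, and no other count of calls moved. Mrpl22 and Mrps9 were each at 0 in 1 library, where 3 reads would be worth 4.35 and 2.53 normalized reads.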
